A study of Arabidopsis thaliana with 6 samples.

Results

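CAX1 (AT2G38170) and CAX3 (AT3G51860) are the genes disrupted in the cax1cax3 double mutant of Arabidopsis, and each was followed through 1 probe set of the Affymetrix ATH1 array. They were 267093_at for CAX1 and 246302_at for CAX3, which makes 2 of the 22746 plant probe sets in the table. They were chosen by probe set identifier, and the gene each one measures was taken from the rule that defined them. The annotation table used here gives neither probe set a gene name, so no table could check this assignment, on which every value below rests. The RefSeq gene table lists both loci under the names CAX1 and CAX3.

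Whole plants of the cax1cax3 double mutant were compared with whole plants of the Columbia-0 wild type, with 3 arrays of each genotype. The mutant is in the Columbia-0 ecotype as well. Plants of both genotypes spent 10 days on 0.5X MS medium with 0.5% sucrose and then 3 weeks in soil, at 22 °C in days of 16 hours, with an age of 40 days on the labels. By harvest, necrotic lesions had begun to form on the mutant. The labels name the genotype without its alleles, do not say how many plants went into a sample, and do not say whether the arrays came from separately grown plants, so p-values measure the spread between these arrays, which may be technical. Array medians ran from 7.03 to 7.08 on the log2 scale, and arrays correlated at 0.976 to 0.993 within a genotype and at 0.962 to 0.981 between genotypes.

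CAX proteins are cation/H+ exchangers. CAX1 and CAX3 sit in the vacuolar membrane and use the proton gradient across it to move calcium from the cytosol into the vacuole, the main calcium store of a plant cell. In Arabidopsis, CAX1 is known as the main exchanger of leaves, and CAX3 is a close relative known from roots.

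CAX1 transcript signal was strongly lower in the mutant. Its level was 7.11, 7.37 and 6.98 (log2) on the 3 cax1cax3 arrays, against 12.60, 12.69 and 12.68 on the 3 wild-type arrays. All mutant arrays lay far below all wild-type arrays, with no overlap. The means were 7.15 ± 0.20 in cax1cax3 and 12.66 ± 0.05 in wild type (log2, SD, n = 3 each). The difference was -5.51 log2 units with an SE of 0.12 (95% confidence interval -5.80 to -5.22), and limma's adjusted p was 2.89e-05. On the linear scale wild-type signal was 45.5 times the mutant signal, with an interval from 37.1 to 55.7.

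CAX3 signal was also lower in the mutant. Its level was 5.31, 5.54 and 5.63 (log2) on the cax1cax3 arrays, against 9.01, 9.31 and 9.09 on the wild-type arrays. Again no mutant array reached a wild-type array. The means were 5.49 ± 0.16 in cax1cax3 and 9.13 ± 0.15 in wild type (log2, SD, n = 3 each). CAX3 fell by 3.64 log2 units with an SE of 0.13 (95% confidence interval of the difference -3.95 to -3.33; limma adjusted p = 2.22e-04). As deposited, wild-type signal was 12.5 times the mutant signal (interval from 10.1 to 15.4). The mutant signal lay at the upper edge of the bacterial control probe sets. As far as it is background, the ratio is a lower bound. With the bacterial signal subtracted, wild-type signal was 20.8 times the mutant signal.

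Both genes were thus called lower, against a background of 3.28% of all plant probe sets called lower at an adjusted p under 0.05. The arrays of the genotypes did not overlap, with the mutant lower, for 13.0% of all probe sets. Both calls held in each of 12 other fits, in which the adjusted p reached 0.00141 for CAX1 and 0.00434 for CAX3. The labels of all 6 arrays therefore matched the level of both mutated genes. Where the probes lie relative to the mutations was not given in the sources used here, so the values measure only the part of each transcript that the probes detect.

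**Figure D1:**
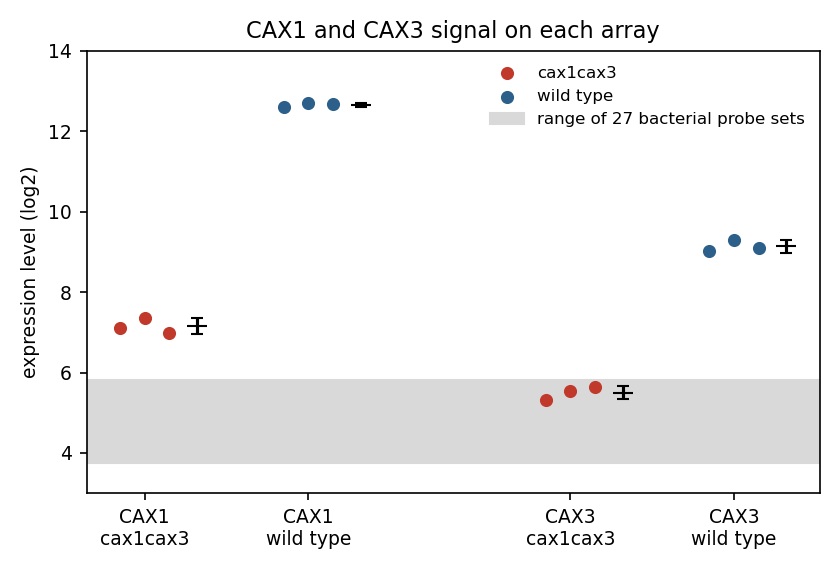
Expression level (log2, vertical axis) of CAX1 and CAX3 on each of the 3 cax1cax3 arrays (red) and the 3 wild-type arrays (blue). Black marks give the mean and SD, and the grey band spans the levels of 27 bacterial probe sets over all 6 arrays. CAX1 in the mutant lies above the band at 6.98 to 7.37, and CAX3 in the mutant lies inside it at 5.31 to 5.63. A single probe set, for the bacterial phe transcript, makes up the part of the band above 4.72.

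Within the whole table both members stood at the extreme. CAX1 had the lowest p of all 22746 probe sets and CAX3 had the third lowest, with the calmodulin-like sensor gene CML41, which rose, between them. By size CAX1 was the second largest fall, after GILT, a gene named for a thiol reductase. CAX3 was the eighth largest, with its rank spread from 7 to 12 over the 12 other fits. CAX1 kept rank 2 by size and rank 1 by p in all of them.

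CAX1 combined a high wild-type level with a narrow spread. Its wild-type mean ranked at 188 from the top of all probe sets. The wild-type SD of 0.05 was larger than that of 10.9% of probe sets, while the mutant SD of 0.20 was larger than that of 58.3%. For CAX3, the SD exceeded that of 47.9% of probe sets in the mutant and 57.5% in the wild type, so its replicates were about as reproducible as those of a typical probe set.

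Set against probe sets of like wild-type signal, the fall of CAX1 was larger than any other. Within 0.5 log2 units of its wild-type level there were 249 other probe sets, with a median change of -0.08. Of these, 12 were called lower (4.82%), and the largest fall among them was a change of -2.49. For CAX3 the same window held 2859 other probe sets with a median change of -0.03, of which 128 were called lower (4.48%). There, 4 fell further than CAX3, the largest with a change of -4.37.

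**Figure D2:**
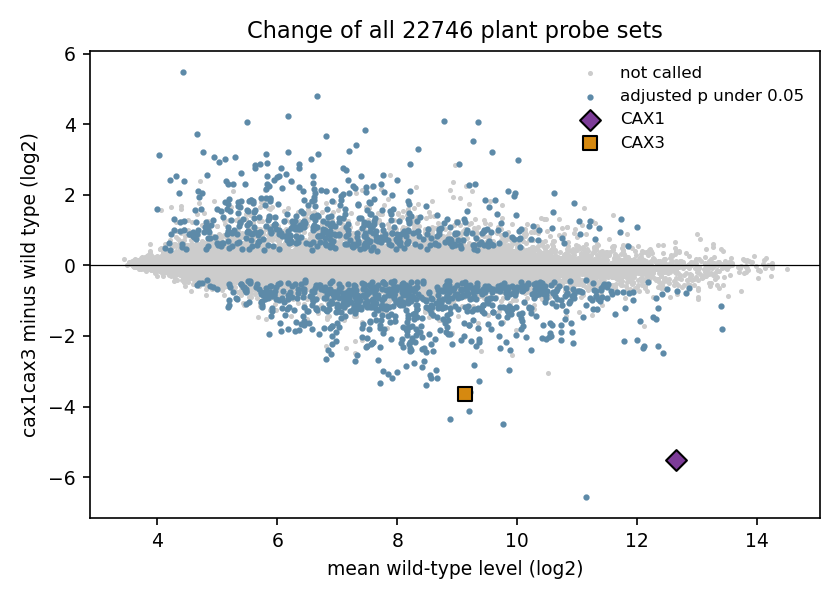
Difference between cax1cax3 and wild type (log2, vertical axis) against mean wild-type level (log2, horizontal axis) for all 22746 plant probe sets. Called probe sets are blue and others grey. CAX1 (diamond) lies at -5.51 at a wild-type level of 12.66, apart from all other probe sets of that level, and CAX3 (square) lies at -3.64 at a level of 9.13.

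The signal left in the mutant was compared with 27 control probe sets for transcripts of Bacillus subtilis, a soil bacterium, whose transcripts a plant lacks. Their median was 4.04 over all 6 arrays and their 95th percentile was 4.70. Between genotypes they changed little, with a median difference of 0.06 and a range from -0.03 to 0.27 log2 units. A single probe set for the bacterial phe transcript stood apart from the others at 5.20 to 5.81, while the highest of the rest reached 4.72.

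CAX1 in the mutant stayed clear of this background. On the 3 cax1cax3 arrays it lay 2.98, 3.36 and 2.90 log2 units above the bacterial median of the array, which is 7.89, 10.3 and 7.48 times that signal. None of the 27 bacterial probe sets exceeded it on any of these arrays. On the wild-type arrays it lay 8.53, 8.69 and 8.71 log2 units above the median. The mutant level was also in the middle of the array's own scale, since 50.7%, 53.9% and 49.4% of plant probe sets lay below it, against 99.1%, 99.2% and 99.1% on the wild-type arrays.

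CAX3 in the mutant lay at the upper edge of the bacterial range. It was 1.19, 1.54 and 1.55 log2 units above the bacterial median on the cax1cax3 arrays, or 2.28, 2.91 and 2.94 times that signal. On the wild-type arrays it was 4.94, 5.30 and 5.12 units above. The phe probe set exceeded CAX3 on cax1cax3 arrays 1 and 3 by 0.07 and 0.18 log2 units and lay 0.29 below it on array 2. The rest of the bacterial probe sets were all lower than CAX3 on these arrays. Among plant probe sets, 30.8%, 33.8% and 34.3% lay below CAX3 on the mutant arrays, against 79.6%, 83.1% and 80.2% on the wild-type arrays.

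Expressed as a share of the wild-type signal, cax1cax3 plants retained 2.13%, 2.56% and 1.95% of CAX1 signal, with a mean of 2.21 ± 0.31% (SD, n = 3). They retained 7.06%, 8.29% and 8.80% of CAX3 signal, with a mean of 8.05 ± 0.89% (SD, n = 3). Subtracting the array's mean bacterial signal on the linear scale, a step added after the data were seen, left 1.93 ± 0.32% of CAX1 and 4.86 ± 0.99% of CAX3 (SD, n = 3 each). The CAX3 share thus depended on what was taken as background, since its mutant signal was close to that level.

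**Figure D3:**
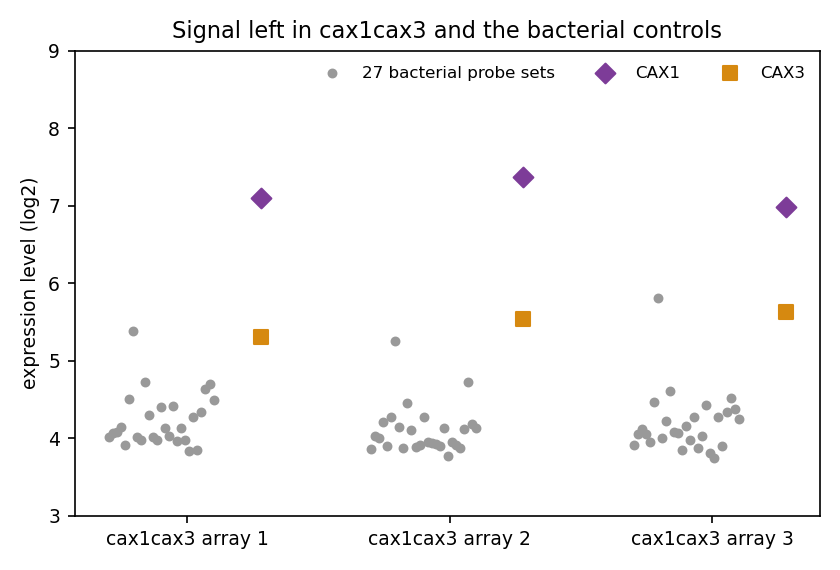
Expression level (log2, vertical axis) on each of the 3 cax1cax3 arrays for the 27 bacterial probe sets (grey), CAX1 (diamonds) and CAX3 (squares). CAX1 exceeds all bacterial probe sets on every array shown, and CAX3 is exceeded by 1 of 27 on arrays 1 and 3 and by 0 of 27 on array 2.

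CAX1 signal exceeded CAX3 signal on every array. Within the cax1cax3 arrays the difference of CAX1 minus CAX3 was 1.79, 1.82 and 1.35 log2 units, and within the wild-type arrays it was 3.59, 3.38 and 3.59. As ratios these were 3.47, 3.54 and 2.55 in cax1cax3, against 12.0, 10.4 and 12.1 in wild type. The mean difference was 1.66 ± 0.27 in cax1cax3 and 3.52 ± 0.12 in wild type (log2, SD, n = 3 each). On the linear scale the mean wild-type difference is a ratio of 11.5. It is a ratio of signals from different probe sets, whose binding strengths differ by an unknown factor, and it is not a ratio of transcript numbers.

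A constant binding factor cancels when the genotypes are compared, as far as signal is proportional to transcript. As deposited, the fall of CAX1 was larger by 1.87 log2 units, or 3.65-fold. With the bacterial signal subtracted, a step added after the data were seen, it was larger by 1.33 log2 units, or 2.51-fold, and the mutant CAX3 signal near background limits how large its own fall could be measured. The within-array differences of the genotypes did not overlap, and the exact two-sided permutation test gave p = 0.1 with and without the subtraction, the smallest value that 3 arrays against 3 allow, so this test could not pass a threshold of 0.05. In wild type CAX3 lay 4.94 to 5.30 log2 units above the bacterial median and CAX1 lay 8.53 to 8.71 above it, and the part of this distance in the unequal falls was not tested.

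Same-numbered arrays gave similar values. The difference between cax1cax3 and wild type was -5.50, -5.32 and -5.70 for CAX1 within the numbers 1, 2 and 3. It was -3.70, -3.76 and -3.46 for CAX3. The order of the numbers was not shared, since CAX1 changed most within number 3 and CAX3 within number 2.

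**Figure D4:**
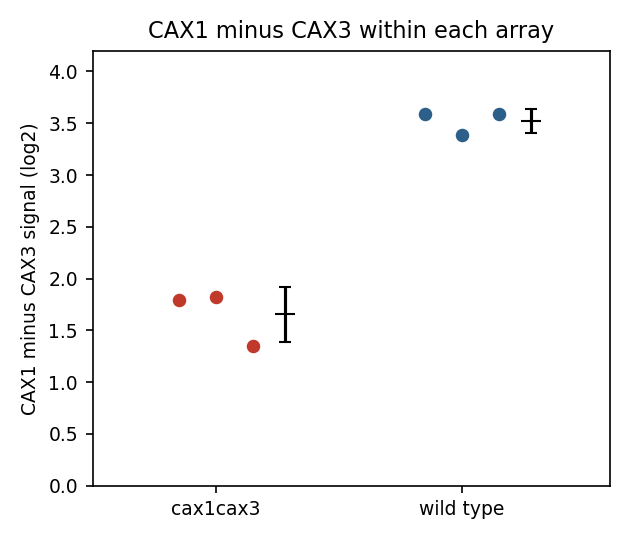
CAX1 minus CAX3 signal (log2, vertical axis) within each cax1cax3 array (red) and each wild-type array (blue), with mean and SD in black. The mutant arrays lie at 1.35 to 1.82 and the wild-type arrays at 3.38 to 3.59.

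The genes beside each mutated locus were examined next, taking the 10 protein-coding genes on either side in RefSeq order, a choice made after the data were seen. Of the 20 neighbours of each gene, 8 were measured by a named probe set at CAX1 and 5 at CAX3. None showed a fall like that of the mutated genes. At CAX1 none could, since the highest wild-type mean of a measured neighbour was 8.60, against a bacterial median of 4.04. At CAX3 only the neighbours with wild-type means of 7.93 and 10.09 had room for such a fall. The median changes of the neighbours were 0.13 at CAX1 and 0.12 at CAX3. The gene just past CAX1, AT2G38180, had levels of 8.41, 8.13 and 8.20 (log2) in cax1cax3, against 7.72, 7.62 and 7.28 in wild type. All mutant arrays were higher. The share of all probe sets without overlap in this direction was not counted, and in the opposite direction it was 13.0%. AT2G38180 rose by 0.70 log2 units with an SE of 0.15 (limma adjusted p = 0.0438), against 2.34% of all probe sets called higher. The call was lost when any 1 of the 6 arrays was left out (adjusted p up to 0.129) and with an intensity trend (adjusted p = 0.0507).

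AT2G38160, just before CAX1, had a change of -0.09 with an adjusted p of 0.818 by limma. AT3G51870, just past CAX3, had a change of 0.12 with an adjusted p of 0.824. Neither differed beyond the spread between arrays, and the sign of each turned in other fits. The largest difference among the neighbours was at AT2G38090, which lies 9 genes before CAX1. Its level was 7.82, 7.21 and 6.41 in cax1cax3 and 8.58, 8.74 and 8.44 in wild type. This change of -1.44 ± 0.33 (SE) was not called (limma adjusted p = 0.0581). It was called in 6 of the 12 other fits, with adjusted p values from 0.0128 with array weights to 0.0488 with an intensity trend, and of 0.0310 with the replicate number as a block. Near CAX3 the largest was 0.36 for BZIP24, a gene for a bZIP transcription factor, which was not called (adjusted p = 0.0937).

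**Figure D5:**
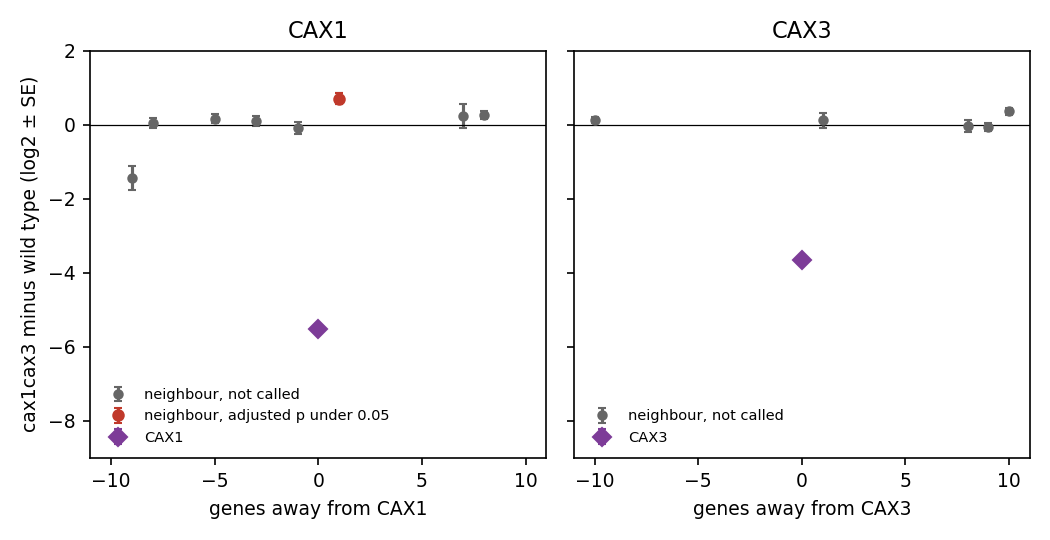
Difference between cax1cax3 and wild type (log2 ± SE, vertical axis) for CAX1 and CAX3 (diamonds) and their measured neighbours (circles), by the number of genes away in RefSeq order (horizontal axis). The neighbours of CAX1 lie between -1.44 and 0.70 and those of CAX3 between -0.06 and 0.36. The mutated genes lie at -5.51 and -3.64. No measured neighbour of CAX1, and only some of those of CAX3, had enough wild-type signal to show such a fall.

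Other exchangers, and the pumps that energize them, had far smaller differences. Of 10 genes for further CAX proteins and related cation exchangers, the annotation named 2. AT5G17850 had levels of 8.35, 8.61 and 8.27 in cax1cax3, against 8.06, 7.95 and 7.75 in wild type. Its mutant arrays were all higher, but the change of 0.49 was not called (limma adjusted p = 0.0928). How many of all probe sets had arrays that did not overlap in this direction was not counted. In the opposite direction it was 13.0%. NCL, which encodes a sodium/calcium exchanger, was at 12.22, 12.13 and 11.91 in cax1cax3 and at 12.09, 12.16 and 12.14 in wild type. Those arrays overlapped, with a change of -0.05 (adjusted p = 0.879).

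Vacuolar proton pumps supply the gradient on which CAX exchangers run. Of 29 genes for their subunits 9 were measured, and none was called higher or lower. Of these, 8 had negative differences, with a median of -0.23 and a range from -0.35 to 0.06, beside a median of 0.01 over all probe sets. The largest was at AT4G26710 (-0.35, limma adjusted p = 0.193), whose levels were 11.37, 11.29 and 11.25 in cax1cax3 and 11.56, 11.50 and 11.88 in wild type. No gene of the lists of calcium pumps, calcium-permeable channels, CAX regulators or other vacuolar transporters was named in the annotation used, so these were not analysed here.

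Genes were also ranked by how closely their 6 values, each centred on its own mean, followed those of a member. The measure was the root mean square difference over the 6 arrays, in log2 units, and with 2 genotypes it mostly ranks genes by the size of their difference. Nearest to CAX1 among the named genes were GILT (0.86), DELTA-VPE (1.12), ATA27 (1.28), AT3G07820 and AT4G15750, the last at 1.40. CAX3 was at 0.95, which is rank 5 among all probe sets. GILT was at 4.82, 4.48 and 4.50 in cax1cax3, against 11.35, 12.19 and 9.93 in wild type. Its wild-type arrays spread over more than 2 log2 units, unlike those of CAX1. DELTA-VPE, whose product is a protease that matures vacuolar proteins in seed coats, was at 4.94, 4.69 and 5.58 in cax1cax3, against 9.76, 10.17 and 7.64 in wild type.

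Nearest to CAX3 were ATA27 (0.38), RXF26 (0.49), AT3G07820 (0.52), AT3G01240 (0.59) and AT3G28750 (0.60). CAX1 was at rank 100 for CAX3. ATA27, a beta-glucosidase gene active in the tapetum (the nurse tissue of pollen), was at 4.79, 4.65 and 4.86 in cax1cax3, against 7.82, 8.07 and 7.40 in wild type. RXF26 was at 6.44, 5.94 and 6.94 in cax1cax3, against 9.11, 9.53 and 9.18 in wild type. These genes were picked for following a member that is lower in the mutant, so their own lower values were fixed by the choice and are given as a description. The mutant levels of GILT, DELTA-VPE, ATA27, AT3G07820, AT4G15750 and AT3G01240 did not exceed the highest bacterial probe set. As far as these levels are background, the differences of these genes are lower bounds. Some of these levels lay above 4.72, the highest that the bacterial probe sets other than phe reached.

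Markers of organs were read beside these values, since the samples were whole plants, in which fewer cells of a type and less RNA per cell cannot be told apart. Of 9 flower and anther markers 4 were measured, and all had lower means in the mutant. ATA27 fell by 3.00 log2 units (limma adjusted p = 0.00209), to a level within the bacterial range. AT5G07230 fell by 0.71 (limma adjusted p = 0.0391), and its call was lost in 4 of the 6 fits without 1 array. Its mutant level was also within that range, where only the phe probe set exceeded it. At an adjusted p under 0.05, 3.28% of all probe sets were called lower. The summed log2 level of these 4 genes ran from 18.7 to 19.0 in cax1cax3 and from 22.6 to 23.8 in wild type. Most of the distance between these sums came from ATA27. The 2 flower and anther markers that were not called lay below the highest bacterial probe set on every array of both genotypes. The 1 measured seed marker of 5 was DELTA-VPE, which fell by 4.12 (limma adjusted p = 0.0182), a call lost in 4 of those 6 fits. As far as their mutant levels are background, the falls of ATA27, AT5G07230 and DELTA-VPE are lower bounds. Root markers (3 of 11 measured) and leaf photosynthesis markers (1 of 8) had no call. The largest root change was 0.14 for EXPA18 (adjusted p = 0.469), and RCA, the rubisco activase gene of the leaf list, changed by -0.18 (adjusted p = 0.476). Root sums ran from 21.5 to 22.4 in both genotypes. EXPA18 and 1 other root marker lay below the highest bacterial probe set on every array of both genotypes. Only the remaining root marker lay clearly above it. The root sums and the absent root calls thus tell little about root shares. The part of organ shares in the CAX1 and CAX3 differences was not tested.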

How the data were processed

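The authors deposited 1 column of log2 values per array, with a value for each probe set. GCOS version 1.1.2 and RMA are named in the submitters' processing notes, with no settings. Values from 3.35 to 14.5 showed the log2 scale. No further normalization was applied. Affymetrix's own 64 controls did not enter the fit. The 22746 plant probe sets were compared between genotypes with limma 3.58.1 in R 4.3.3 (lmFit and eBayes, no covariates, Benjamini-Hochberg adjustment over all of them), and an adjusted p under 0.05 was called. The fit was checked on simulated data. The within-array difference was tested by exact permutation in scipy 1.17.1.

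Of the probe sets, 13513 were named with 1 gene through the platform's annotation, updated to RefSeq TAIR10.1 symbols, 503 with several and 8730 with none. The lists held 114 genes, of which 20 were measured. A gene with several probe sets was represented by the one with the highest mean. Members and lists were chosen with earlier results of these data known. Named were the members, the 5 nearest named genes of each, up to 4 called genes of a list or the one with the largest change, and, of the neighbours of a member, the adjacent ones, any called one and the one with the largest change. No sequence and no genome coordinate was used.

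Deviations from the genotype mean were alike in same-numbered arrays (correlations of 0.43, 0.29 and 0.47 over probe sets for the numbers 1, 2 and 3). The numbers were therefore taken to pair the arrays, although the labels do not say what a number marks. The main fit and the main permutation test left this pairing out, and it entered only as an alternative. The alternatives were the replicate number as a block, quantile normalization, median centring, removal of the dimmest 33.3% of probe sets, array weights, an intensity trend in the variance, each array left out in turn, and other summaries of the bacterial probe sets. The number of arrays limits the precision.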

Additional observations from a re-analysis of the deposited data

How the results depend on the processing

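The falls of CAX1 and CAX3 kept their direction and their call under all 12 alternatives. Without single arrays the difference ran from -5.62 to -5.42 for CAX1 and from -3.71 to -3.55 for CAX3. With the replicate block both stayed called (limma adjusted p = 0.00101 and 0.00293), and apart from AT2G38090 it changed no call of a gene named in the text. The counts over all probe sets were less stable. The 532 higher and 747 lower probe sets became 1053 and 1171 with the replicate block and 1286 and 1560 with array weights. Without single arrays they ran from 108 to 797 higher and from 147 to 947 lower, both lowest without cax1cax3 array 2. The margin over background depended on its definition. Above the bacterial median, CAX1 in cax1cax3 averaged 3.08 log2 units and CAX3 1.43. Above the 95th percentile it was 2.50 and 0.85, above the highest bacterial probe set 1.67 and 0.011, and above the highest without the phe probe set, an alternative added after the data were seen, 2.46 and 0.81. Without single cax1cax3 arrays the margin over the median ran from 2.94 to 3.17 and from 1.36 to 1.55. Subtracting bacterial signal took the CAX3 share left from 8.05% to 4.86%, and the wild-type difference of CAX1 minus CAX3 from 3.52 to 3.56. Without single arrays that difference ran from 3.49 to 3.59, and the gap between the falls of both genes from 1.71 to 1.95. With bacterial signal subtracted this gap was 1.33. In the paired analysis, with the replicate block, this gap was 1.87, with an exact sign-flip p of 0.25, the smallest that 3 pairs allow. Signs turned for 3 named genes, none of them called: NCL (-0.11 to 0.043) and AT2G38160 (-0.26 to 0.0040) over the fits without single arrays, and AT3G51870 over the same fits (-0.12 to 0.28) and with array weights (-0.011). Removal of the dimmest 33.3% of probe sets gave no value for the genes among them, AT2G38160, BZIP24, EXPA18 and AT3G01240. Array weights called AT5G17850, BZIP24 and AT2G38090 (adjusted p = 0.0274, 0.0282 and 0.0128). AT2G38090 was also called with the block, with the dimmest probe sets removed (adjusted p = 0.0467), with an intensity trend (0.0488), and without cax1cax3 array 1 (0.0288) or 3 (0.0352). The cause of these shifts was not tested.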
